A study of Mus musculus with 6 samples.

Results

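Solute carriers are the membrane proteins, named Slc, that move sugars, lactate, amino acids, urea, ions, metals, nucleotide sugars and mitochondrial metabolites across the cell's membranes. The genes described here were those probes of a mouse expression array whose accession maps to a mouse symbol of Slc followed by a digit, with the brightest probe taken for each gene. Of 231 such genes on the array, 228 could be tested, among 10547 named genes tested in all. Slc13a1, Slc2a5 and Slc5a7 had too few usable spots.

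The study set 3 cultures of p38α-/- mouse embryo fibroblasts (KO) against 3 wild-type cultures (WT), each on 1 CodeLink array. KO and WT cells shared a mixed 129/svev × C57Bl/6 background, spontaneous immortalisation by serial passage and a stably transduced H-Ras G12V oncogene. The comparison is between Ras-expressing cells without and with the kinase p38α, encoded by Mapk14. Mapk14 had background-subtracted intensities of 17.6, 18.6 and 8.35 in KO and 60.8, 70.6 and 68.8 in WT, and it was lower by 1.92-fold (limma adjusted p = 7.8e-05), with 1 of 3 KO arrays above background. The labels call the cultures biological replicates without saying whether they are separately derived lines. The p-values therefore measure the spread between these cultures, and the number of arrays limits their precision. A difference due to p38α and one between the immortalised lines cannot be told apart here. The labels name a second colour with a pool of the same genotype, but each file holds 1 channel, taken here as that of the culture.

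As background, uptake by solute carriers sets which nutrients a fibroblast can use. Transformed cells that ferment glucose export lactate together with a proton through monocarboxylate transporters of the Slc16 family. Glutamine enters mainly through Slc1a5, and large neutral amino acids enter through a dimer of Slc7a5 with the heavy chain Slc3a2. Carriers of the Slc25 family span the inner membrane of mitochondria.

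KO replicate 3 stood apart, with 8677 of 19801 gene probes above background against 9363 to 10232 on the other 5 arrays. It correlated with the other KO arrays at 0.986 and 0.987, while the lowest correlation within WT was 0.996. The fibroblast markers Vim, Col1a2 and Pdgfrb were above background on every array and Thy1 on none. Vim was 1.77-fold higher (adjusted p = 8.8e-04) and Pdgfrb 1.47-fold lower (adjusted p = 0.0012), and their part in other differences was not tested. All 3 macrophage and blood markers and all 4 endothelial markers measured were near background on every array.

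A few solute carriers, led by transporters of urea and lactate, rose by a large factor in KO, while most were dim or did not pass the test. Near background on every array were 114 of the 228 genes (50%), against 38.4% of all named genes. At an adjusted p under 0.05 in limma, 26 members were higher in KO and 15 lower, and 187 did not pass. Higher calls were 63.4% of the members' calls, and 75.7% under median scaling of the arrays in place of quantile normalization. The 11.4% of solute carriers called higher stood against 13.1% of all named genes, and the 6.58% called lower against 13.0%. In either direction 18.0% of solute carriers were called, against 26.1% of named genes and 22.6% of all gene probes. Among the 74 members above background on every array, 16 were higher (21.6%, background 20.7%) and 10 lower (13.5%, background 21.4%). The members' median log2 difference was -0.01, and that of all named genes was also -0.01. In the main fit, a change of at least 2-fold was seen for 4 members, all higher (background 3.02% of named genes), and for 0 lower members (background 1.6%). These were Slc14a1, Slc16a3, Slc45a3 and Slc66a2. Which members pass 2-fold depends on the processing. Among members called under every alternative, the log2 difference reached -1.37 for Slc16a6 and -1.34 for Slc4a3 under an alternative. It reached 1.77 for Slc1a5 and 1.68 for Slc25a20. In RNA of whole cultures, fewer cells that express a gene and less RNA per cell cannot be told apart. The 2 groups were free of overlap for 77 members (33.8%, background 39.6%). Under all of 15 processing alternatives that gave a value, 14 of the 26 higher and 4 of the 15 lower calls held, and none of the 41 changed sign.

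**Figure D1:**
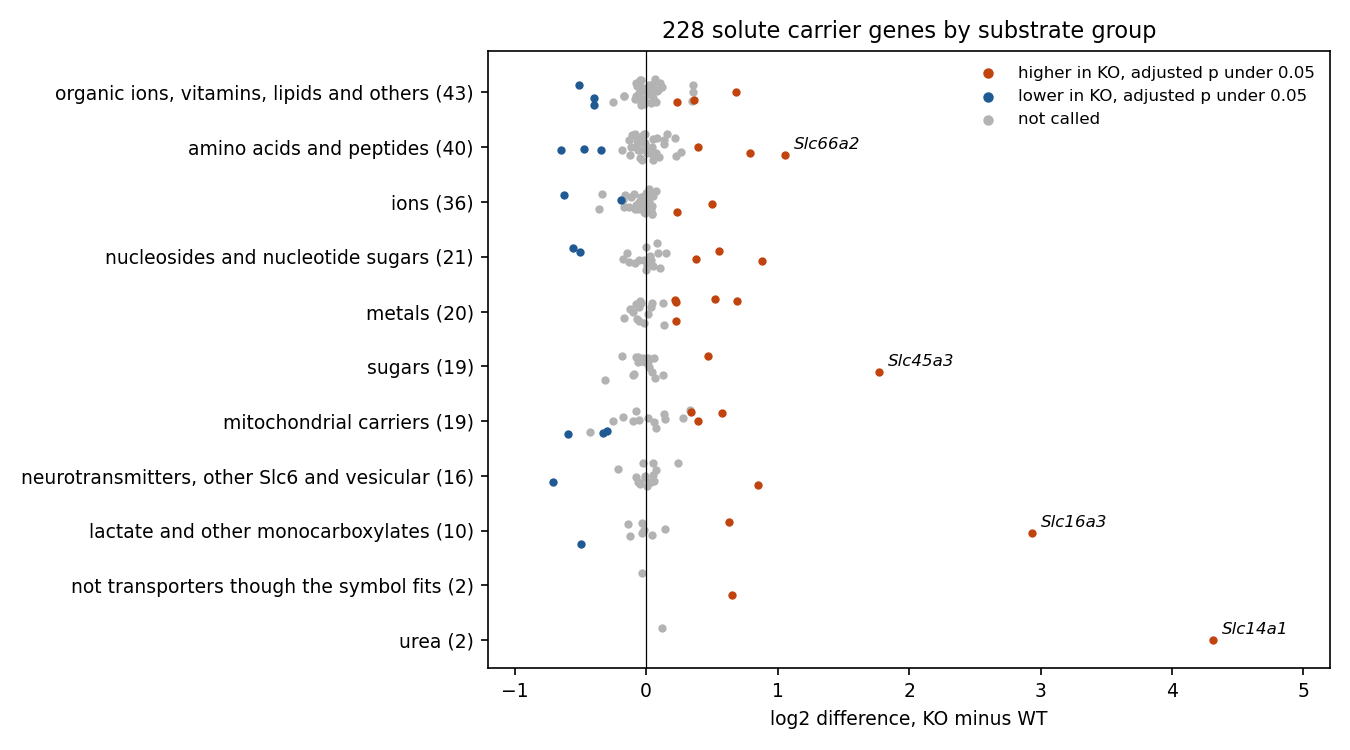
Log2 difference (KO minus WT, horizontal axis) of the 228 tested solute carriers, 1 point per gene, in rows by substrate group with the number of genes in parentheses. Vertical scatter within a row has no meaning. Red points are called higher and blue points lower at an adjusted p under 0.05, and 4 named genes lie at or beyond 1.

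The promoters of 4 called members are shown because the letters of known response elements can be read in 3 of them and because Slc45a3 is one of the most raised. Each run is the 250 bases before the gene's start in RefSeq, build GRCm38.p6. Capitals mark ACGTG (the core of the hypoxia response element), TGATGNAA (the amino acid response element) or TGANTCA (AP-1), searched on both strands.
Slc16a3: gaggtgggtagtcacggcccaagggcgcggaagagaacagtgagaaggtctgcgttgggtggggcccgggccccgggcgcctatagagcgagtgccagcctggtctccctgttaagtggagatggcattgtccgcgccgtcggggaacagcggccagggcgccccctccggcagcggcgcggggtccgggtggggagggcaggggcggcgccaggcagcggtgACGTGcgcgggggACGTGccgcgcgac
Slc3a2: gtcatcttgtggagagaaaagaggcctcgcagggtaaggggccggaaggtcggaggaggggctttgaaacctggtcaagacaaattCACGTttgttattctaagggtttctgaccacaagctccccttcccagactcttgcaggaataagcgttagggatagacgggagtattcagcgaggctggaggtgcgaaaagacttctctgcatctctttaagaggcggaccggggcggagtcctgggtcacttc
Slc49a4: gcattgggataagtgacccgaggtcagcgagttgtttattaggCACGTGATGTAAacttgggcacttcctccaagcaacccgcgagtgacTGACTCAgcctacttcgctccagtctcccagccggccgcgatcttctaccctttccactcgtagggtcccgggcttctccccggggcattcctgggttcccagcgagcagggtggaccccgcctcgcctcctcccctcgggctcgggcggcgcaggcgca
Slc45a3: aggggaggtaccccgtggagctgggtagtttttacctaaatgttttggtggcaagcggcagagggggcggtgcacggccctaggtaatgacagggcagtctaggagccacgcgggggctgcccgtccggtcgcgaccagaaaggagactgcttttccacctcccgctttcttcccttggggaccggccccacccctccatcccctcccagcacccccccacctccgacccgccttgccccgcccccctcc
Their positions are chr11:120948817-120949066 on the plus strand for Slc16a3, chr19:8713898-8714147 on the minus strand for Slc3a2, chr16:35769371-35769620 on the minus strand for Slc49a4 and chr1:131962665-131962914 on the plus strand for Slc45a3, which has 2 starts in the table. The Slc16a3 window holds ACGTG 2 times, with the first letters 27 and 14 bases before the start. The Slc3a2 window holds the same letters once on the opposite strand. In Slc49a4 the run CACGTGATGTAA joins ACGTG on both strands with TGATGNAA, which overlap each other, and a TGANTCA follows. Of 26 higher members 17 had a promoter in the table, with 21 starts, of which 23.8% held ACGTG. Of 15 lower members 9 had one, with 18 starts, of which 22.2% held it. This stood against 21.5% of 186 starts of members that were not called and 16.6% of 32851 starts in the table. Slc29a1 alone gave many of the 18 starts and most of those that held ACGTG. The shares count starts rather than genes, and those of lower members, with their share of G and C, lean on this gene. TGATGNAA was in 1 of the 21 and 0 of the 18 starts (3.45% of all starts), and TGANTCA in 1 and 0 (6.75%). These matches describe letters only, and the median share of G and C was 56.0% in the promoters of higher members, 61.4% in those of lower members and 52.4% overall.

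Urea transport held the member with the greatest change. Slc14a1, the urea transporter of red cells and the vascular lining of the kidney, had background-subtracted intensities of 1501, 1330 and 1041 in KO replicates 1, 2 and 3, and of 9.41, 5.67 and 1.76 in WT. Every KO array was above background and no WT array was. Such intensities are not scaled between arrays, and the fits use normalized log2 signals. In these, Slc14a1 had means of 10.23 ± 0.14 for KO and 5.92 ± 0.10 for WT (SD, n = 3 arrays each), a log2 difference of 4.31 (SE 0.09, limma adjusted p = 8.1e-08). Because WT was near background, this is given as at least 16.3-fold higher, where the WT level is the higher of its own signal and the lowest signal above background on each array. The kidney urea transporter Slc14a2 was near background on all 6 arrays. With offset 0, a setting that does not damp dim signals, the Slc14a1 difference was 6.90.

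Red cell markers were examined beside Slc14a1, since the gene is known from that cell type. Of 8 measured red cell genes, Hba-a1, the alpha chain of haemoglobin, was 7.19 higher on the log2 scale, and its intensities of 13583 to 17480 in KO make up most of the list's summed intensity of 13938 to 17809, against 292 to 335 in WT. Hbb-bt, a beta globin, passed at 0.23 (adjusted p = 0.042) with both groups near background. It lost this call under 10 of 14 alternatives, among them without each array but KO replicate 3. The anion exchanger of red cells, Slc4a1, was at intensities of 1.16 to 3.28 on all 6 arrays, and the defining genes Gata1, Klf1 and Epor were near background on every array. The part of red cell RNA in the Slc14a1 difference was not tested beyond these levels. Rhag, the Rh-associated glycoprotein, was above background throughout and did not pass (-0.05, adjusted p = 0.77). In the list of urea and arginine genes, 1 of 12 measured was higher (8.33%) and 3 lower (25%). Of all named genes 13.1% were higher and 13.0% lower. The member higher was Aqp1, a water channel, at intensities of 500, 488 and 544 in KO against 95.0, 91.7 and 82.5 in WT (3.31-fold, adjusted p = 2.0e-05). Arg2, the mitochondrial arginase that makes urea, was 1.90-fold lower (adjusted p = 1.6e-05) and Odc1, the first enzyme of polyamine synthesis, 1.48-fold lower (adjusted p = 0.013). The call of Odc1 was lost with offset 0 and with the authors' normalized values (adjusted p of 0.073 at most). Nos2 (-0.22, adjusted p = 0.041) lost its call under 10 of 15 alternatives, among them without KO replicate 1, KO replicate 2, WT replicate 1 and WT replicate 2 (adjusted p of 0.27 at most over all of them).

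Among 10 monocarboxylate transporters, 2 were higher (20%) and 1 lower (10%), against 13.1% and 13.0% of named genes. Near background on every array were 5, and only 1 was higher without WT replicate 1 or 3. Slc16a3 (MCT4), the low-affinity exporter of lactate, had intensities of 383, 447 and 468 in KO and 5.93, 2.21 and 0.46 in WT. No WT array was above background, and the groups were far apart. It was at least 5.97-fold higher in KO (log2 difference 2.94, SE 0.12, adjusted p = 2.3e-06), and the difference was 5.83 with offset 0. Slc16a1 (MCT1), the widely expressed high-affinity form, lay at 56.1, 36.7 and 32.7 in KO and 46.9, 29.7 and 47.8 in WT, with overlapping groups (-0.12, adjusted p = 0.55). Slc16a6 was at least 1.34-fold lower, with intensities of 16.9, 16.5 and 11.8 in KO and 35.3, 38.0 and 37.0 in WT (adjusted p = 5.1e-04).

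Genes that work with these transporters or on their cargo also differed. Emb, embigin, an ancillary protein of monocarboxylate transporters, had intensities of 5.2 to 6.4 in KO and 62.2 to 90.4 in WT and was at least 2.0-fold lower (adjusted p = 2.1e-05). Basigin (Bsg), another listed partner, was not measured. Emb was 1 of 2 lower and 2 higher genes among 10 measured partners (20% each, against 13.0% and 13.1% of named genes). The others were Mpc1, a subunit of the mitochondrial pyruvate carrier (1.39-fold lower, adjusted p = 0.0028, lost with offset 0 and under median scaling at adjusted p of 0.13 at most), Ezr, ezrin (1.44-fold higher, adjusted p = 4.4e-04) and the sideroflexin Sfxn3 (at least 1.09-fold higher, adjusted p = 0.0094, lost with the authors' normalized values). Of 17 measured genes listed as enzymes of glucose, pyruvate and lactate, 6 were higher (35.3%) and 1 lower (5.88%), and their median difference was 0.43. The list also holds Car9, a carbonic anhydrase, which was not called. Of the 6 higher, Aldoa (adjusted p = 0.032) kept its call under 9 of 15 alternatives. It lost the call without WT replicate 1, 2 or 3, with offset 0 and with the authors' normalized values, among others. All but 1 of the 17 were above background on every array, where 20.7% of named genes were higher and 21.4% lower. Ldha, the lactate dehydrogenase subunit of glycolytic tissue, was 1.53-fold higher (intensities 21249 to 24499 in KO, 13217 to 14825 in WT, adjusted p = 2.4e-04). Ldhb, the subunit of oxidative tissue, was 2.82-fold lower (125, 161 and 143 against 393, 464 and 389, adjusted p = 1.8e-05). Among the higher enzymes, Hk1, hexokinase, was raised 2.19-fold (adjusted p = 1.8e-04), and Pfkp, a phosphofructokinase, 1.63-fold (adjusted p = 5.7e-05). These lists were chosen with earlier results of the same arrays known and give no independent support.

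Sugar transporters were mostly near background, 14 of 19 on every array. Slc45a3, prostein, of the sugar transporter family Slc45, rose. Its intensities were 201, 191 and 194 in KO and 13.8, 10.5 and 10.9 in WT, where no array was above background. It was at least 3.13-fold higher (log2 difference 1.77, SE 0.07, adjusted p = 1.9e-06), and the difference was 3.39 with offset 0. Slc37a4, which carries glucose 6-phosphate into the endoplasmic reticulum, was 1.39-fold higher (adjusted p = 0.0059), with intensities of 61.7 to 96.7 in KO and 28.1 to 40.4 in WT. The glucose transporters Slc2a3 and Slc2a4 were near background on all 6 arrays. Slc2a1 is not analysed here. No sugar transporter passed as lower, and Slc50a1, the one with the lowest difference, stood at -0.32 (adjusted p = 0.061) and passed under the filter on dim probes, array weights, and without KO replicate 3 or WT replicate 1, among others.

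**Figure D2:**
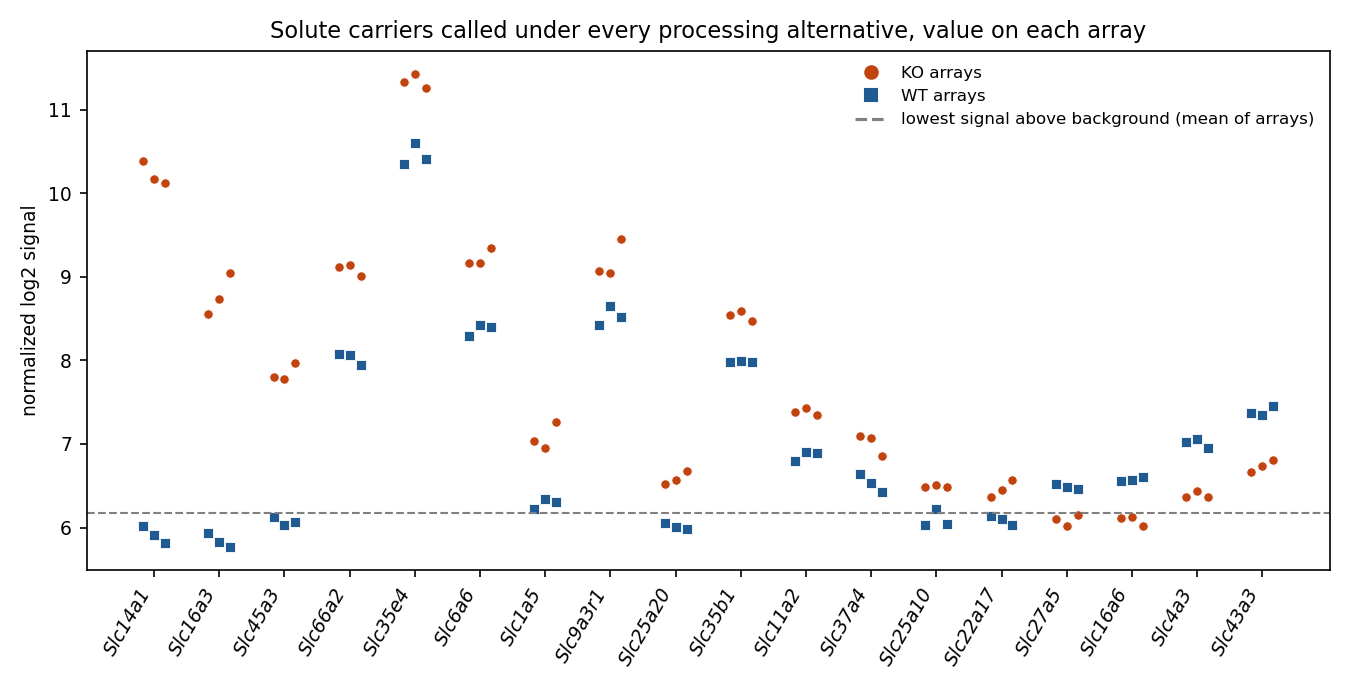
Normalized log2 signal (vertical axis) on each of 3 KO arrays (circles) and 3 WT arrays (squares) for the 18 members called under every alternative, ordered by difference, with replicates 1 to 3 from left to right. The dashed line is the mean over arrays of the lowest signal marked above background. WT squares of Slc14a1, Slc16a3 and Slc45a3 lie below it, and KO and WT points of a gene do not overlap.

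Of 40 amino acid and peptide transporters 3 were higher and 3 lower (7.5% each, against 13.1% and 13.0% of named genes), and 24 were near background on every array. Higher members numbered 5 without KO replicate 3 and 7 with array weights, and 2 without WT replicate 1 or 3. Slc1a5 (ASCT2), the glutamine carrier, rose 1.73-fold. Its intensities were 91.7, 78.8 and 98.2 in KO and 18.6, 25.4 and 21.5 in WT (adjusted p = 4.2e-04), and 2 of 3 WT arrays were above background. Its log2 difference of 0.79 was 1.59 with offset 0 and 1.77 with the authors' normalized values. Slc66a2 rose 2.08-fold, with 597, 606 and 455 in KO and 191, 203 and 163 in WT (adjusted p = 1.8e-05). It was placed in this group by its family only. Slc43a3, a purine base transporter in a family of amino acid carriers, fell, with 97.9, 104 and 103 in WT and 56.2, 59.6 and 58.1 in KO (1.57-fold lower, adjusted p = 1.9e-04).

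The 2 chains of one amino acid transporter moved in opposite directions. The normalized log2 signal of the heavy chain Slc3a2 (CD98) was 8.82, 8.77 and 9.07 in KO and 8.32, 8.60 and 8.55 in WT, which is 1.32-fold higher in KO (adjusted p = 0.028). That of the light chain Slc7a5 (LAT1) was 6.96, 6.82 and 7.15 in KO and 7.36, 7.51 and 7.47 in WT, which is 1.39-fold lower (adjusted p = 0.0070). The groups did not overlap for either gene, but neither call held throughout. Slc3a2 lost its call without WT replicate 1 (adjusted p = 0.10), without WT replicate 3 (0.073), with offset 0 (0.13) and with the authors' normalized values (0.084), and Slc7a5 with the authors' normalized values (0.060). Slc1a4 (ASCT1), a carrier of alanine, serine and cysteine, was 1.27-fold lower (adjusted p = 0.0035), but not under median scaling (-0.19, adjusted p = 0.26) or with offset 0 (adjusted p = 0.078). Among 9 measured enzymes of these amino acids, of 18 listed, 4 were higher (44.4%) and 2 lower (22.2%), against 13.1% and 13.0% of named genes. Above background on every array were 8 of the 9, and of named genes with such signals 20.7% were higher and 21.4% lower. Got1, one of the higher, lost its call under 10 of 15 alternatives, among them without any 1 array except KO replicate 3. Got2, one of the lower, lost it under 7, among them without WT replicate 1, 2 or 3. Glul, glutamine synthetase, had intensities of 434, 380 and 219 in KO and 47.4, 49.1 and 48.0 in WT (3.26-fold higher, adjusted p = 8.7e-05). Glud1, glutamate dehydrogenase, was 1.97-fold higher (adjusted p = 6.1e-05), and Gss, glutathione synthetase, 1.74-fold higher (adjusted p = 0.0040, lost with the authors' normalized values at 0.075).

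**Figure D3:**
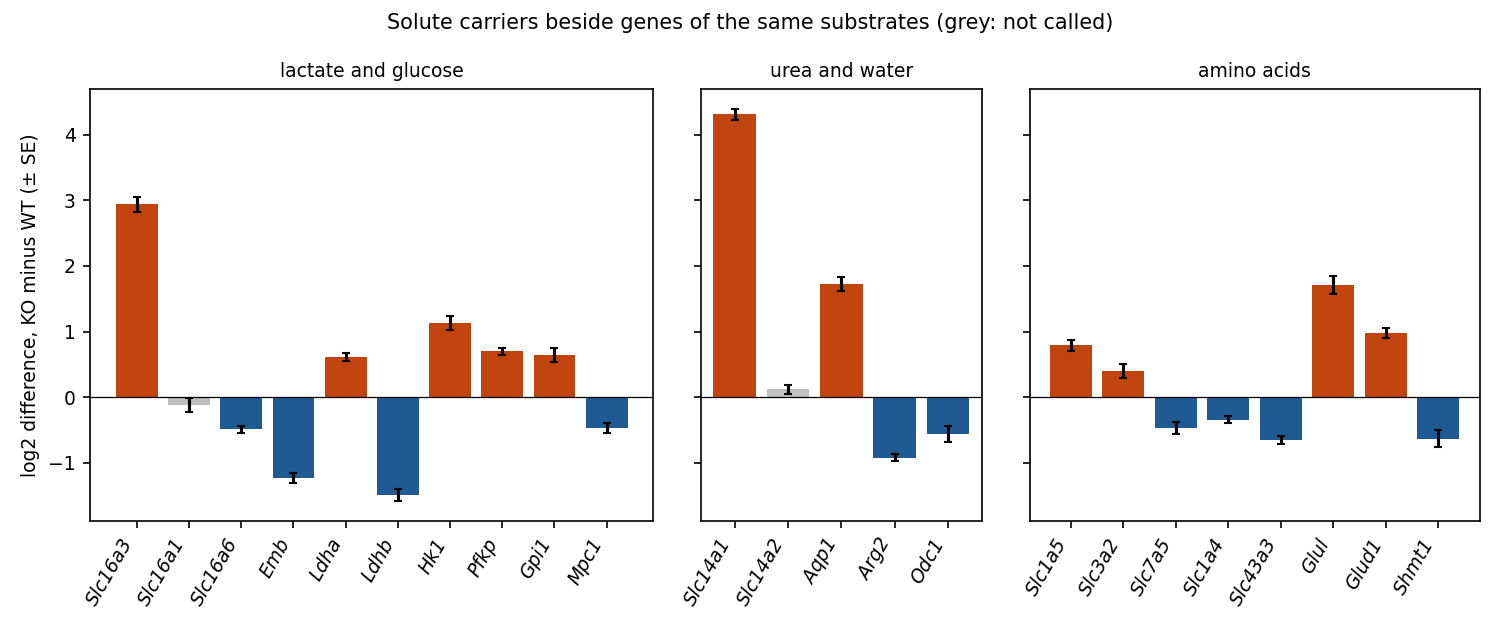
Log2 difference (KO minus WT, bars from 0) with its standard error for solute carriers and for genes that handle the same substrates, in 3 panels. Red bars are called higher, blue bars lower and grey bars not called. The genes were picked for the plot after their values were seen, and Slc14a1 at 4.31 and Ldhb at -1.50 are the extremes.

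Among 20 transporters of metals 5 were higher and none lower (25%, against 13.1% of named genes called higher), and 8 were near background on every array. Slc11a2 (DMT1), the importer of ferrous iron, was 1.44-fold higher, with intensities of 132, 138 and 107 in KO and 49.9, 61.5 and 54.8 in WT (adjusted p = 4.3e-04). It was the only 1 of the 5 to pass under every alternative. Slc30a4, a zinc transporter of vesicles, had normalized log2 signals of 12.07, 11.77 and 11.26 in KO and 11.04, 10.97 and 11.02 in WT. KO replicate 3 lay nearest to WT, and the gene was 1.61-fold higher (adjusted p = 0.028). Its call was lost without KO replicate 2 (adjusted p = 0.084), without WT replicate 1 (0.087), 2 (0.10) or 3 (0.094), with offset 0 (0.10), without background correction (0.055) and with the authors' normalized values (0.16). The zinc exporter Slc30a1 was 1.17-fold higher (adjusted p = 0.022), the zinc transporter Slc39a7 of the secretory pathway 1.17-fold (adjusted p = 0.017) and the copper transporter Slc31a2 1.16-fold (adjusted p = 0.025). Slc30a1 lost its call without KO replicate 1 (0.069) or 2 (0.077) and without WT replicate 1 (0.086) or 2 (0.080), with offset 0 (0.056) and without background correction (0.16). Slc39a7 lost it without WT replicate 2 (0.069) or 3 (0.059), with offset 0 (0.27) and with spot medians (0.095), and Slc31a2 without KO replicate 2 (0.091) and without WT replicate 1 (0.094), 2 (0.058) or 3 (0.088). The number of metal transporters higher ranged from 1 to 5 over the alternatives, with 2 without KO replicate 2, WT replicate 1 or WT replicate 3 and 1 without WT replicate 2, and none was lower under any. Slc40a1, the iron exporter ferroportin, was near background in both groups. Of 12 other iron, zinc and copper genes 1 was higher and none lower (8.33% and 0%, against 13.1% and 13.0% of named genes). It was Ftl1, the light chain of ferritin, by 1.28-fold (adjusted p = 0.0083), which was lost with offset 0 and with the authors' normalized values (adjusted p of 0.13 at most).

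Of 19 mitochondrial carriers 17 were above background on some array, and 3 were higher and 3 lower (15.8% each, against 13.1% and 13.0% of named genes). Slc25a20, the carnitine and acylcarnitine carrier, was at least 1.31-fold higher, with intensities of 44.1, 46.6 and 46.9 in KO and 10.6, 9.35 and 7.87 in WT (adjusted p = 3.5e-04). Slc25a10, the dicarboxylate carrier, was at least 1.22-fold higher (adjusted p = 0.0043). Both were above background on all KO and no WT arrays. Slc25a37 (mitoferrin), an importer of iron, was 1.27-fold higher (adjusted p = 0.0091) but not with offset 0 (adjusted p = 0.11). Of the lower members, Slc25a27, an uncoupling protein relative, was at least 1.15-fold lower (adjusted p = 0.010, 0.17 with the authors' normalized values). Slc25a24, a carrier of ATP and phosphate, had log2 signals of 11.87, 11.80 and 11.28 in KO and 12.13, 12.18 and 12.42 in WT (1.51-fold lower, adjusted p = 0.031). Its call was lost under 9 of 15 alternatives, among them without WT replicate 1 (0.068), 2 (0.084) or 3 (0.13), and under median scaling (-0.45, adjusted p = 0.24). Slc25a46, a protein of the outer membrane, was 1.23-fold lower (adjusted p = 0.024) and lost its call under 7 alternatives, among them without KO replicate 2 (0.084) and without WT replicate 1 (0.089) or 3 (0.077). Without KO replicate 3 there were 6 higher and 6 lower, and 1 was lower without WT replicate 1 or 3.

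Of 36 ion transporters 2 were higher and 2 lower (5.56% each, against 13.1% and 13.0% of named genes), and 21 were near background on every array. None was higher without KO replicate 1 or any 1 WT array, under median scaling or with the authors' normalized values, and 1 was lower without any 1 array except KO replicate 3. Slc4a3, an anion exchanger, fell. Its log2 signal was 6.37, 6.44 and 6.37 in KO and 7.03, 7.06 and 6.95 in WT, which is 1.54-fold lower in KO (adjusted p = 1.8e-04), and 2 of 3 KO arrays were above background. Slc20a1, a phosphate importer, was 1.42-fold higher (adjusted p = 0.027) and lost its call without any 1 array except KO replicate 3 (adjusted p of 0.066 to 0.11). Slc24a2, a sodium, calcium and potassium exchanger, was 1.14-fold lower (adjusted p = 0.042) and lost it without any 1 of the 6 arrays (0.052 to 0.14). Slc4a2, another anion exchanger and one of the brightest probes, overlapped between the groups (-0.33, adjusted p = 0.15). Of 7 measured genes of P-type ATPases and their beta subunits, 2 were higher and none lower (28.6% and 0%, against 13.1% and 13.0% of named genes). They were Atp1b1 and Atp1b3, beta subunits of the sodium pump, 2.61-fold (adjusted p = 2.6e-04) and 1.62-fold (adjusted p = 0.0079), the second lost with offset 0 (0.053). No alpha subunit of that pump was measured. The ATPases proper on the list, Atp2a1, Atp2a3 and Atp2b2, were near background on every array.

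Of 21 transporters of nucleosides and nucleotide sugars, 3 were higher and 2 lower (14.3% and 9.52%, against 13.1% and 13.0% of named genes). There were 4 lower without KO replicate 3, 1 without any other single array and 0 with offset 0. Slc35e4 rose 1.84-fold, with log2 signals of 11.33, 11.42 and 11.26 in KO and 10.36, 10.61 and 10.41 in WT (adjusted p = 1.7e-04). A second probe of the gene differed by 0.60 (adjusted p = 0.0089), in the same direction. It was 1 of 12 members with 2 probes, and the only 1 of them with a call by either. Slc35b1, which exchanges ATP and ADP at the endoplasmic reticulum, was 1.47-fold higher (adjusted p = 2.7e-04). Slc35b4, a nucleotide sugar transporter of the secretory pathway, was 1.30-fold higher (adjusted p = 0.0066, n = 3 KO and 2 WT arrays with a usable spot), but not with offset 0 (adjusted p = 0.10). Slc35e3 was 1.47-fold lower (adjusted p = 0.0070, 0.053 with offset 0). Slc29a1 (ENT1), the main equilibrative nucleoside transporter, was 1.42-fold lower (adjusted p = 0.037), with log2 signals of 7.32, 7.33 and 7.86 in KO and of 7.96 to 8.07 in WT. KO replicate 3 lay close to WT. The call was lost without any 1 array except KO replicate 3 (adjusted p of 0.098 to 0.13).

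Transporters of neurotransmitters and their relatives held 1 higher and 1 lower of 16 (6.25% each, against 13.1% and 13.0% of named genes). There were 2 lower without KO replicate 3. Slc6a6, the taurine transporter, rose 1.81-fold, from intensities of 230, 278 and 242 in WT to 612, 624 and 587 in KO (adjusted p = 1.1e-04). Slc6a4, the serotonin transporter, was 1.63-fold lower (adjusted p = 0.0076), with 27.2, 26.7 and 3.11 in KO and 68.6, 50.7 and 45.1 in WT. KO replicate 3 was near background there, and with offset 0 the adjusted p was 0.076. Of 4 neural markers measured, Gap43, Nefm and Stmn2 were also higher, and the list's summed intensity was 462 to 559 in KO and 44.9 to 50.5 in WT. Whether this has a part in either gene's difference was not tested.

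Among 43 carriers of organic ions, vitamins, lipids and others, 3 were higher and 3 lower (6.98% each, against 13.1% and 13.0% of named genes). There were 5 higher without KO replicate 1, 5 higher and 5 lower without KO replicate 3, and 1 higher without WT replicate 1 or 3. Slc48a1 (HRG1), the haem transporter of endosomes and lysosomes, was 1.60-fold higher (adjusted p = 0.012), with log2 signals of 10.05, 10.15 and 10.65 in KO and 9.55, 9.68 and 9.59 in WT. Its call was lost without WT replicate 1 (adjusted p = 0.057) or 3 (0.054), with offset 0 (0.065) and with the authors' normalized values (0.060). Slc22a17, a receptor of lipocalin, was at least 1.19-fold higher (adjusted p = 0.0066). The call of Slc49a4 (1.18-fold higher, adjusted p = 0.034) was lost without KO replicate 2 (0.062) or WT replicate 1 (0.083), 2 (0.11) or 3 (0.11), with offset 0 (0.20) and with spot medians (0.40). Slc19a2, the thiamine transporter, was 1.42-fold lower (adjusted p = 0.0090, but 0.14 under median scaling, 0.061 with offset 0 and 0.12 with the authors' normalized values). Slc27a5, a bile acid and fatty acid ligase, was at least 1.26-fold lower (adjusted p = 0.0021). Slc10a1, the bile acid importer of liver, was 1.31-fold lower (adjusted p = 0.039) and lost its call without any 1 array except KO replicate 3 (adjusted p of 0.053 to 0.11).

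Of the genes that carry the symbol without being transporters, Slc9a3r1, the scaffold NHERF1 that links membrane proteins to ezrin, was 1.57-fold higher (adjusted p = 0.0055), with intensities of 573, 566 and 631 in KO and 257, 330 and 267 in WT. Its relative Slc9a3r2 did not pass (-0.03, adjusted p = 0.82). For the other large family of membrane transporters, the ABC proteins, 3 of 36 genes were higher (8.33%) and 5 lower (13.9%). Of all named genes 13.1% were higher and 13.0% lower. Near background on every array were 21 of the 36, and of the 5 lower genes 4 were above background on some array. Abcd4 was 1.81-fold lower (adjusted p = 1.9e-04) and Abcg2, a multidrug exporter, 1.73-fold lower (adjusted p = 1.9e-04), with 1 KO array above background. Abce1, a ribosome recycling factor that does not transport, was 1.58-fold lower (adjusted p = 3.3e-04).

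**Figure D4:**
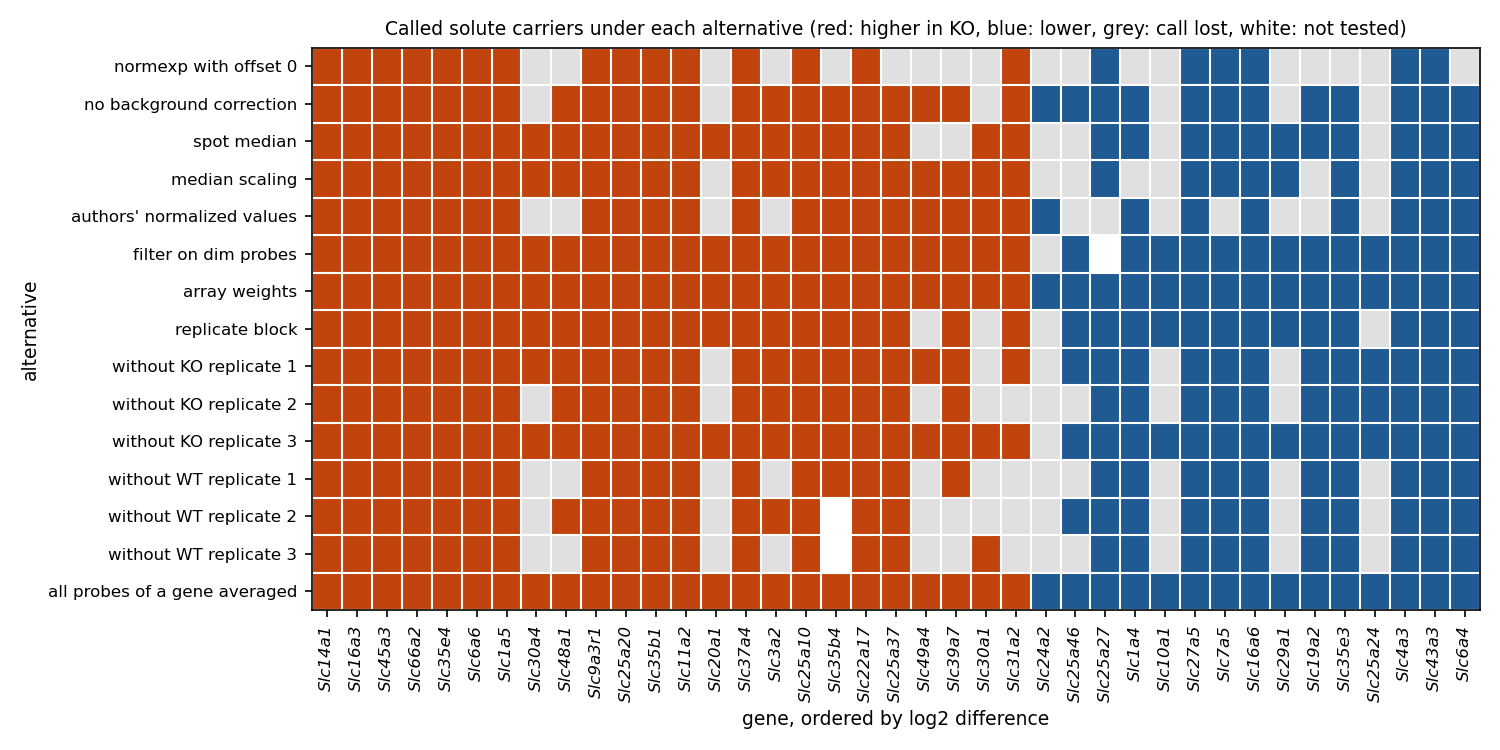
Called solute carriers that are reported here (horizontal axis, ordered by log2 difference) under each of 15 processing alternatives (vertical axis). Red cells are called higher in KO, blue cells lower, grey cells lost the call and white cells were not tested. Columns without grey hold throughout, and the left end from Slc14a1 to Slc1a5 is red in every row.

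Krt19 and Krt18 of 6 epithelial markers were also higher. The list's summed intensity, most of it Krt19, was 2281 to 3348 in KO and 34.5 to 43.8 in WT, while Krt8, Krt14, Epcam and Cdh1 were near background on every array. Of 2 muscle markers measured, Cnn1 was higher and Myog was near background, with sums of 181 to 218 in KO and 9.62 to 13.0 in WT. The part of these markers in the differences of solute carriers was not tested.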

How the data were processed

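Each deposited scanner file gives, per the file headers, spot mean, spot median and background intensity for every spot of 1 array. On every array the authors' expression value equals spot mean minus background median, and their normalized intensity is that value divided by 1 constant. The deposited value table, of medians 0.961 to 0.974, equals these to 6 decimals in 99.1% to 99.5% of values per array, with the columns of KO replicates 2 and 3 exchanged, as are the names inside those files. Rows were matched on the values of KO replicate 1 and WT replicate 1. The share for these arrays is therefore the share of rows matched, and only the other arrays check the agreement. Replicates here follow the titles, and groups are unaffected. The submitters' processing notes name limma.

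Background was corrected by normexp with offset 50 in limma 3.58.1 under R 4.3.3. Masked, contaminated and irregular spots were left out, and 19801 gene probes were quantile normalized on the log2 scale. A probe was tested with at least 2 arrays per group, which left 19590. KO and WT were compared with lmFit and eBayes, as a two-sided test. P-values were adjusted by Benjamini-Hochberg over all tested probes, at a threshold of 0.05. Quantile normalization and the fit were also run on simulated log2 values with the same spread for every probe. That run does not test the background correction, the offset or the spot flags. Offset 50 pulls differences of dim probes toward 0.

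Probes were named by RefSeq accession (10712) or unique synonym (101) from a table of assembly GRCm38.p6, and 8988 stayed unnamed. Some called genes are counted but not reported here by name. Single values are given for those at least 2-fold changed, 9 always given where measured, and up to 4 per group by adjusted p. Of related lists up to 3 genes are named, and any beyond that were picked after their values were seen. The substrate groups follow families. Members, lists and tests were chosen with earlier results of these data known.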

Additional observations from a re-analysis of the deposited data

How the results depend on the processing

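Of all gene probes 4419 were called, against 2717 with offset 0 and 2721 with the authors' normalized values, and without single arrays from 3177 to 5798. Solute carriers higher in KO numbered 26, but 17 with offset 0, and 16 to 34 without single arrays. The lowest counts were 17 without WT replicate 1 and 16 without WT replicate 3, where the remaining WT group has 2 samples. Those lower numbered 15, but 7 with offset 0, 9 under median scaling, and 11 to 24 without single arrays, with 24 without KO replicate 3. The cause was not tested. Under median scaling 75.7% of the called members were higher, against 63.4% here, and of all called probes 64.1% against 46.3%. The median over all probes moved by less than 0.1 under each alternative. None of the 41 calls changed sign under an alternative. The replicate block, which pairs equal numbers, gave 24 higher and 15 lower members and 4334 probes. Deviations of same-numbered arrays correlated at 0.24, -0.12 and 0.097, so the numbers were not taken as pairs, and KO replicates 2 and 3 did not correlate best with their own numbers. Numbered by the names inside the files, the correlations are 0.24, 0.20 and -0.087. Calls lost under the block include Slc24a2 (adjusted p = 0.075), Slc30a1 (0.059), Slc25a24 (0.058) and Slc49a4 (0.061), and Slc50a1 (0.035), Slc25a13 (0.043) and Slc25a23 (0.038) passed, which they did not without it. For the 114 genes near background on every array a missing call does not show an unchanged level.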
